A study of Mus musculus with 2 samples.

Results

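The subject here is a set of 10 mouse genes for threonine breakdown, serine synthesis and one-carbon metabolism, out of 28592 genes with a value in the table. They were taken by name, with identifiers matched to symbols, and all 10 were found: Tdh, Gcat, Gldc, Phgdh, Psat1, Psph, Shmt2, Shmt1, Mthfd2 and Mat2a. Their RNA was measured in E14TG2a, a mouse embryonic stem (ES) cell line that lacks a working Hprt gene. The cells were grown in 2i/LIF, a medium with inhibitors of MEK and GSK3 plus leukaemia inhibitory factor, which keeps ES cells in the naive ground state. There was 1 group with 2 replicates, both of this line and medium, and there was no other cell state, treatment or genotype. So genes were set against each other within these cells, and no change between conditions could be measured.

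Mitochondria of mouse ES cells break threonine down to glycine and acetyl-CoA, and these cells are known to depend on threonine in their medium. Glycine and serine pass their carbon to folate, as one-carbon units that go into purines, thymidylate and the methyl group of methionine. Methionine is then activated to S-adenosylmethionine, the methyl donor for DNA and histones. In humans the TDH gene does not make a working enzyme, so this first step is not shared with human cells.

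Values are FPKM, the number of sequenced fragments divided by transcript length and by library size, so that genes can be compared with each other on a level per length. Each gene is given with its value in replicates 1 and 2 and with the mean ± SD (n = 2). The table's column sums were 946498 (replicate 1) and 928174 (replicate 2), and depth in reads is unknown. All 5 ES cell markers (Pou5f1, Nanog, Sox2, Zfp42 and Esrrb) were between 90.8 and 1005 FPKM, and none of 6 primitive endoderm and none of 6 hepatocyte markers reached 1 in both replicates. Of 10 feeder fibroblast markers Vim alone did so. The other 9 summed to 0.415 in replicate 1 and 4.42 in replicate 2, with Postn, Dcn and S100a4 at 0 in replicate 1 and Lum at 0 in replicate 2. Nothing in the labels tells if 2 separate cultures were used, so the spread between the values may be technical. In RNA from whole cultures, fewer cells that carry an RNA and less of it per cell cannot be told apart.

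All 10 genes were detected, which means 1 FPKM or more in each replicate, where the share over the whole table was 39.4% and over RefSeq protein-coding genes 50.6%. At 100 or more in both replicates there were 4 of them, Tdh, Psat1, Mat2a and Shmt1, where the share of all genes was 3.61% and of coding genes 4.48%. Gcat (108 and 98.1) and Phgdh (100.01 and 90.7) lay on either side of that limit in the 2 replicates. The median of the 10 means was 99.2 ± 6.86, against 0.233 over all genes and 12.7 over the 11253 detected genes. For a median over genes, here and below, ± is the SD of the medians of the 2 replicates. It is not the spread among the genes. The members ranged over 10.8-fold in mean, with Tdh at the top and Mthfd2 at the bottom.

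**Figure D1:**
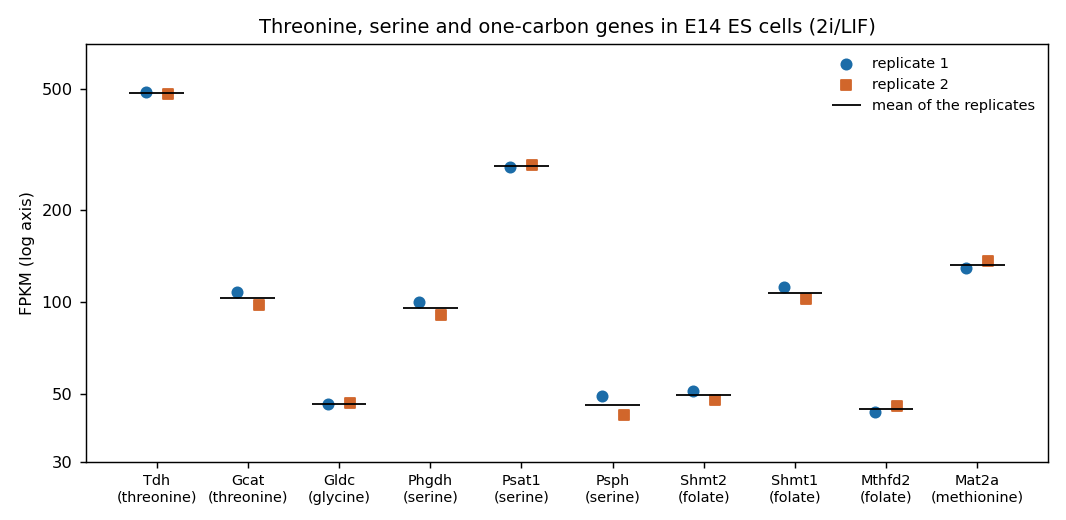
FPKM of the 10 genes on a log axis, in replicate 1 (circles) and replicate 2 (squares), with the mean as a line and the metabolic branch in brackets. Tdh stood highest at 486 and 481, Psat1 next at 276 and 282, and Shmt2, Gldc, Psph and Mthfd2 lay together between 42.7 and 51.3.

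Tdh was the most abundant of the set. It encodes threonine dehydrogenase, the mitochondrial enzyme that oxidises threonine, and lies at chr14:63492347-63509092 on GRCm38. Tdh had 486 FPKM in replicate 1 and 481 in replicate 2 (484 ± 3.59). Only 253 genes of the table had a higher mean, which placed it above 99.1% of all genes and 97.8% of detected ones. The replicates differed by 0.742% as a coefficient of variation, and the next member, Psat1, stood at 279. The span of Tdh holds that of the lncRNA gene Gm17232, which was at 0.425 and 1.07.

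Gcat encodes the ligase that splits the product of Tdh with coenzyme A into glycine and acetyl-CoA (chr15:79030874-79042531). Gcat had 108 and 98.1 FPKM (103 ± 7.13). Tdh stood 4.49 and 4.90 times above Gcat in replicates 1 and 2, a log2 ratio of 2.22 ± 0.09 on the FPKM + 1 scale. Both values were far above the spread between replicates, so the level of the first step exceeded that of the second in each library. Here and below, ratios in times are of FPKM within a replicate, and no p is given, because an exact sign-flip test over 2 replicates cannot go below 0.5.

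Of other listed enzymes that act on threonine, Tha1 and Sds were at or near 0. Tha1, the threonine aldolase, had 0.0628 and 0.125 FPKM, and Sds, the serine and threonine dehydratase, was listed at 0 in both replicates. Tdh exceeded Tha1 by 8.79 ± 0.07 in log2(FPKM + 1). For so low a gene this scale understates both the gap and its spread between replicates. In FPKM, Tdh was 7734 and 3834 times Tha1 in replicates 1 and 2. Sdsl, which is related to Sds, was listed at 0 in replicate 1 and had 0.0766 in replicate 2. Of the 8 genes listed for further breakdown of threonine, serine and glycine 2 were detected. These were Srr, the serine racemase, at 12.8 ± 0.116, and the glycerate kinase Glyctk at 1.45 ± 0.586. Cufflinks can also write 0 where its estimate fails, so such genes are given only as listed at 0.

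Glycine that leaves this route can be cleaved by the glycine cleavage system, which has 4 proteins. Gldc encodes the P protein, which decarboxylates glycine (chr19:30098441-30175441). Gldc had 46.5 FPKM in both replicates (46.5 ± 0.0201). Amt, the T protein that hands the carbon to folate, had 127 and 133, and Gcsh, the lipoyl-carrying H protein, had 144 and 154. Gldc was thus at 0.365 and 0.350 of Amt and at 0.323 and 0.303 of Gcsh, with log2 ratios of -1.47 ± 0.04 and -1.66 ± 0.07. Dld, the L protein that is shared with pyruvate dehydrogenase, had 41.6 and 44.7. Gldc and Dld were close, with a log2 ratio of 0.11 ± 0.07, which was 1.54 times its own SD. All 4 genes were detected, in 2 tiers, with Gcsh and Amt above 100 and Gldc and Dld below 50.

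Serine synthesis from the glycolytic intermediate phosphoglycerate takes 3 enzymes, and the middle one was the most abundant. Phgdh, the dehydrogenase of the first step (chr3:98313171-98339969), had 100.01 and 90.7 FPKM (95.3 ± 6.60). Psat1, the aminotransferase of the second step (chr19:15905123-15925059), had 276 and 282 (279 ± 4.28). Psph, the phosphatase of the last step (chr5:129765558-129787443), had 49.2 and 42.7 (46.0 ± 4.54).

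Psat1 was 2.76 and 3.11 times Phgdh, a log2 ratio of 1.54 ± 0.12. Psph was at 0.178 and 0.152 of Psat1, a log2 ratio of -2.58 ± 0.16. Phgdh was 2.03 and 2.12 times Psph, a log2 ratio of 1.04 ± 0.04. The order of the 3 steps was the same in both replicates and their replicate ranges did not overlap. Psph had the widest spread of the set, with a coefficient of variation of 9.88%. Its 5′ end overlaps by 88 bases the gene Cct6a, a chaperonin subunit at 517 and 521 FPKM. Whether quantification used strand is not given in the sources used here, so reads in that overlap cannot be assigned, and their part in the value of Psph was not tested.

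**Figure D2:**
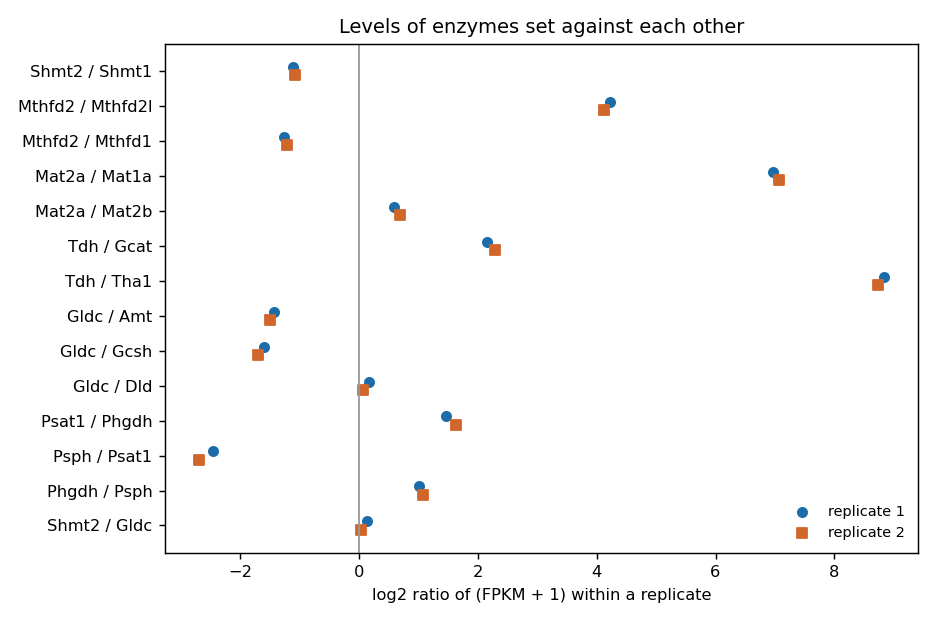
The log2 ratio of (FPKM + 1) between 2 enzymes within replicate 1 (circles) and within replicate 2 (squares), for the 14 pairs with both genes above 0; to the right of the line the first-named gene is higher. Shmt2 lies left of 0 against Shmt1 (-1.12 and -1.08), Psat1 right of 0 against Phgdh (1.45 and 1.63), and Shmt2 against Gldc close to 0 (0.14 and 0.04).

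Serine hydroxymethyltransferase turns serine into glycine and loads the carbon on folate. Shmt2, the mitochondrial form (chr10:127517123-127522444), had 51.3 and 47.7 FPKM (49.5 ± 2.52). Shmt1, the cytosolic form (chr11:60788897-60811265), had 112 and 102 (107 ± 7.10). The mitochondrial form was therefore lower, at 0.457 and 0.467 of the cytosolic one, a log2 ratio of -1.10 ± 0.02. Shmt2 made up 31.4% and 31.8% of the FPKM of the pair.

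The promoter windows of this pair are shown because they are the 2 forms of 1 enzyme whose levels differed. Each runs from 250 bases before to 50 bases after the gene's start, 5′ to 3′ on the minus strand, from RefSeq on GRCm38.p6. Capitals mark the GC box GGGCGG, the letters bound by Sp and Klf factors, on either strand.
Shmt2, chr10:127522395-127522694: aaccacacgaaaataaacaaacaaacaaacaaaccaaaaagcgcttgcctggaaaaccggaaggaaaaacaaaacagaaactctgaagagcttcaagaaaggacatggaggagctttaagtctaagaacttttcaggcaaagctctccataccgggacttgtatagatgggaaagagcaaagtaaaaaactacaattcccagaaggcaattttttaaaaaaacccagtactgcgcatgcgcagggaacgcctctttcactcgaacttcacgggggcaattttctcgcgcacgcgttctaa
Shmt1, chr11:60811216-60811515: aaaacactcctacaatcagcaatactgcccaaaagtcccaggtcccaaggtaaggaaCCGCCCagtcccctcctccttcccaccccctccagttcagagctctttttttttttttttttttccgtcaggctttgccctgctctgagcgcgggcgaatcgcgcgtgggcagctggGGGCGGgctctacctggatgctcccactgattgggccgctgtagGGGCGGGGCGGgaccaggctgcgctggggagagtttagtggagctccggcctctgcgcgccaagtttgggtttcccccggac
The Shmt2 window holds 0 matches and has 42.7% G and C, and the Shmt1 window holds 4 matches, 2 of them overlapping, and has 60.7%. The letters are a description of the windows, and nothing about a factor or the levels follows from them.

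For the next folate steps, the pair of Mthfd2 and Mthfd1 had the same order of compartments as Shmt2 and Shmt1. Mthfd2, the mitochondrial dehydrogenase and cyclohydrolase that carries the carbon on (chr6:83305704-83326011), had 43.6 and 45.8 FPKM (44.7 ± 1.58). Mthfd1, the cytosolic enzyme with these activities, had 106 and 107. Mthfd2 was at 0.410 and 0.427 of Mthfd1, a log2 ratio of -1.24 ± 0.04. Mthfd2l, the other mitochondrial form, had 1.39 and 1.68, so that Mthfd2 was 31.3 and 27.3 times higher and made up 96.9% and 96.5% of their sum.

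Mthfd1l, which releases formate in mitochondria, had 47.8 and 51.2 FPKM, within the band of Shmt2 and Mthfd2. Aldh1l2, the mitochondrial enzyme that oxidises formyl-folate, had 1.39 and 1.57, and its cytosolic form Aldh1l1 had 33.2 and 30.1. The mitochondrial list had 7 of 8 genes detected with a median of 14.7 ± 0.0197, and the cytosolic list 7 of 8 with a median of 23.7 ± 0.794. Means within the lists ranged widely, from 0.0350 to 49.5 and from 0.0123 to 198. Tyms, the thymidylate synthase, was the highest of the cytosolic list at 204 and 192. Ftcd and Sardh, which feed carbon from histidine and sarcosine, were at most at 0.0520 in either replicate.

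Shmt2 makes methylene-folate in mitochondria, and so does the glycine cleavage system, of which Gldc encodes the P protein. The levels of Shmt2 and Gldc were close. Those of Amt, Gcsh and Dld are given above, with Amt, which hands the carbon to folate, at 127 and 133. The log2 ratio of Shmt2 to Gldc was 0.14 in replicate 1 and 0.04 in replicate 2 (0.09 ± 0.07), which was 1.19 times its SD. These 2 genes, Mthfd2 and Mthfd1l lay between 43.6 and 51.3 in every library.

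Mat2a encodes the catalytic subunit of methionine adenosyltransferase outside the adult liver (chr6:72432796-72439556). Mat2a had 129 and 136 FPKM (133 ± 4.66), below Psat1 and above Shmt1. Mat1a, the form of adult liver, had 0.0433 and 0.0173, and Mat2a made up 99.97% and 99.99% of the sum of the 2 forms. Mat2b, the regulatory subunit, had 85.5 and 84.1, and Mat2a was 1.51 and 1.62 times higher, a log2 ratio of 0.64 ± 0.07. The Mat2a span overlaps Ggcx by 564 bases, which was at 7.44 and 7.74. It also overlaps that of the lncRNA Particl by 874 bases, which was not analysed here. Of the other members, Shmt2 overlaps Ndufa4l2 by 32 bases, which was at 4.63 and 3.42. Gcat overlaps the coding gene Galr3 by 647 bases and Gldc the pseudogene Rpl31-ps20 by 411 bases, both not analysed here. The part of these overlaps in the values was not tested.

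Of the 10 genes of the methionine cycle 9 were detected, with a list median of 13.9 ± 0.560. Ahcy, which removes the inhibitory product of methyl transfer, was the highest at 298 and 267 FPKM. Mtr, the methionine synthase that takes its methyl group from folate, had 17.4 and 18.0, and its reductase Mtrr had 8.90 and 9.16. Bhmt and Bhmt2, which can remethylate homocysteine without folate and are known from liver and kidney, were detected as well. Bhmt had 26.9 and 27.8, and Bhmt2 had 9.64 and 9.41.

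Bhmt, Bhmt2 and Dmgdh, the mitochondrial dimethylglycine dehydrogenase, follow each other on chromosome 13, from 93616891 to 93752823. Dmgdh had 24.0 and 23.9 FPKM. No other RefSeq coding gene lies in that span, and the lncRNA AW495222 within Dmgdh was at 1.33 and 1.497. Hepatocyte markers were low in the same libraries, with a summed FPKM of 0.668 and 0.590 over 6 genes, and Ttr and Serpina1a were listed at 0 in both.

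Homocysteine can also leave the cycle for cysteine. Cth, the lyase of the second step, had 111 and 109 FPKM, and Cbs, the synthase of the first, had 31.99 and 30.9. Both were detected.

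**Figure D3:**
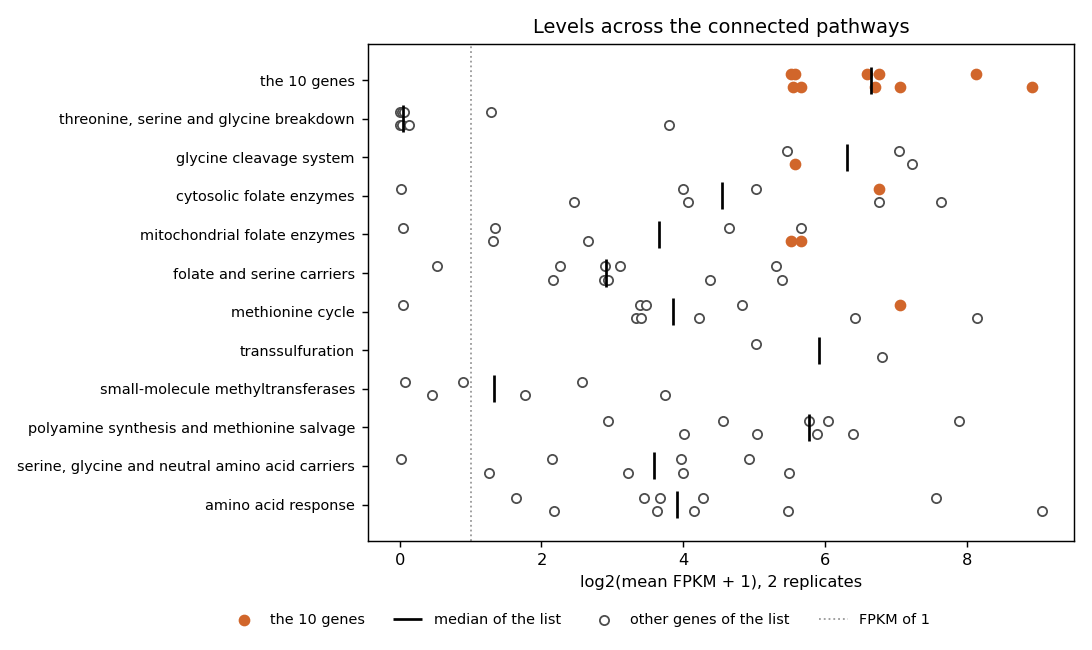
Levels of the genes of 11 connected lists as log2(mean FPKM + 1) over 2 replicates, with the 10 genes as filled circles, other genes as open circles, list medians as black lines and an FPKM of 1 as the dotted line. The 10 genes lie between 44.7 and 484 FPKM, and the list for further threonine, serine and glycine breakdown has 6 of 8 genes left of the dotted line.

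Carriers of folate, serine and neutral amino acids had lower list medians than the 10 genes. Of 10 genes listed for carriers of folate and serine and for the glutamate tail of folate 9 were detected, with a median of 6.53 ± 0.117. Fpgs, which adds glutamates that keep folate in the cell, had 41.5 and 40.1 FPKM, and the folate receptor gene Folr1 had 35.3 and 41.5. Slc19a1, the reduced folate carrier, had 5.99 and 6.87, and Slc25a32, the mitochondrial folate carrier, had 7.05 and 8.12. Sfxn1, which brings serine into mitochondria, had 19.4 and 20.2. Of 8 neutral amino acid carriers 7 were detected and the median was 11.5 ± 0.0863. The highest were Slc3a2 at 45.0 and 42.9 and Slc38a2 at 28.1 and 30.5.

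Over the 11 lists 78 genes were not among the 10, and 64 of them were detected. The detected share was 39.4% over all genes and 50.6% over RefSeq protein-coding genes. These shares also stand beside the count of each single list, above and below. The median was 99.2 ± 6.86 for the 10, against 11.6 ± 0.185 for these 78. The 10 genes were named with earlier results in view, and the counts are a description.

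In the order of levels, Tdh, Psat1 and Mat2a were each separated from the next gene by more than the replicate ranges. The ranges of Shmt1 and Gcat overlapped, as did those of Gcat and Phgdh, and all 3 genes were lower in replicate 2. Within replicates 1 and 2, Shmt1 was 1.04 times Gcat in both, and Gcat was 1.08 times Phgdh in both, so the order was the same in each library and the gaps were small. A gap followed between Phgdh (95.3) and Shmt2 (49.5). Among the lower 4 genes the range of Psph overlapped those of Shmt2, Gldc and Mthfd2. Shmt2 was above Psph in both replicates, at 1.04 and 1.12 times, whereas the order of Gldc and Psph, and of Psph and Mthfd2, turned between the replicates, so these last pairs did not differ beyond their spread. In all, 40 of 45 pairs of members had separate ranges, over a 10.8-fold span of means. The share among pairs of other genes was not computed, so this count describes the levels and shows no trait of the set.

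Between the replicates, 6 of the 10 genes were higher in replicate 1 and 4 in replicate 2. As log2(FPKM + 1), replicate 2 minus replicate 1, the difference ran from -0.20 for Psph to 0.07 for Mat2a. Gcat and Phgdh were both at -0.14 and Shmt1 at -0.13. Each was set against the genes within 2-fold of its level, and 0 of 10 lay outside their central 95%, which for Psph spanned -0.25 to 0.19. The median over the detected genes was -0.003, so no general shift lay between the FPKM values of the libraries. These values are already divided by library size, so a shift in total RNA could not be seen. The sums of fibroblast markers given above also differed between the replicates, and their part in these differences was not tested.

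**Figure D4:**
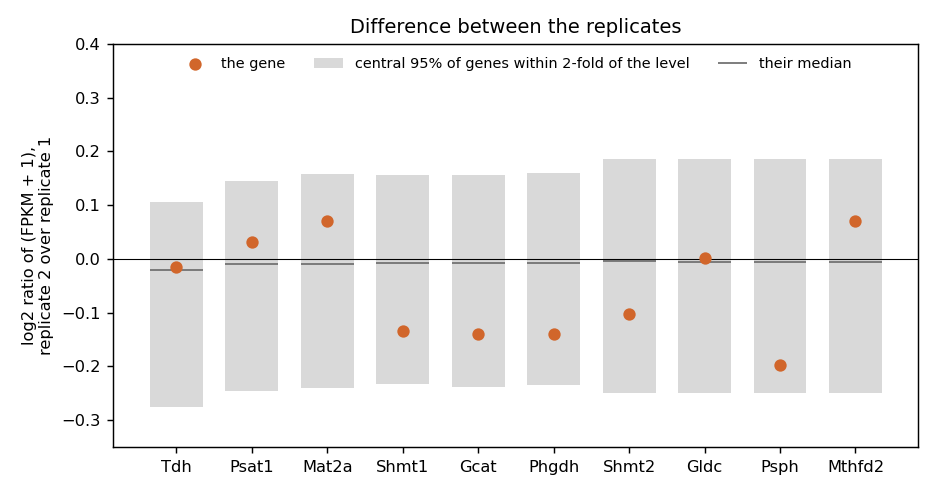
The log2 ratio of (FPKM + 1), replicate 2 over replicate 1, for each of the 10 genes (points), with the central 95% of all genes within 2-fold of its mean level (grey bars) and their median (grey lines). Each point lies inside its bar, with Psph lowest at -0.20.

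Promoter windows of RefSeq were found for 9 of the 10 genes, not for Tdh, with 10 windows in all, since Psat1 has 2. Their median content of G and C was 60.5%, against 52.7% over all 32851 windows and 60.7% over 10714 windows of detected coding genes. The median ratio of observed to expected CpG was 0.748, against 0.384 over all windows and 0.769 over those of detected coding genes. It was lowest for Gldc, at 0.389, and highest for Mat2a, at 1.05. Both medians lay nearer to those of detected coding genes than to those of all windows.

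The motifs searched on both strands were the GC box GGGCGG, the E-box CACGTG bound by Myc and related factors, TATAAA, and TGATGNAA from the element bound by C/EBP and ATF factors. The GC box was found in 6 of 9 genes, against 70.6% of detected coding genes with a window and 38.2% of all genes with one. In the same order, TATAAA was found in Mat2a and Phgdh, against 7.75% and 15.7%. CACGTG was found in Gcat, against 12.5% and 8.09%, and TGATGNAA in 0 of 9, against 2.53% and 4.51%. No test of these shares was made. The 3 rarer matches are printed because they differ between members, with the motif in capitals and on the gene's own strand.
Gcat, chr15:79030865-79030892: cctgcccacgtCACGTGacggggagcac
Mat2a, chr6:72439572-72439599: accccctgctcTATAAAtactgggccgc
Phgdh, chr3:98340142-98340169: tttatttccaaTATAAAtcagcctgctg
The E-box of Gcat begins at base 3 of the transcript, counting the start as 1, and the TATAAA of Mat2a begins 32 bases before the start. That of Phgdh begins 189 bases before it. No match elsewhere says only that these letters are not in the window.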

How the data were processed

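RNA of E14TG2a mouse ES cells in 2i/LIF was sequenced in 2 replicates of 1 group. Per the labels' protocols, TRIzol RNA was depleted of ribosomal RNA and made into strand-specific libraries. The authors deposited 1 table of FPKM, holding 1 value for each gene and replicate. CASAVA, TopHat2 and Cufflinks, and the builds mm10 and GRCm38, are named in the submitters' processing notes. The sources used here do not give versions, annotation, strand setting, row filters or how reads with several matches were handled.

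Columns were matched to replicates by name. Stable identifiers gave a symbol to 28256 of 28592 genes, and all 115 listed genes were found. RefSeq types were matched by symbol alone, for 23814 genes.

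The 10 genes, the 11 pathway lists, the 4 marker lists and the 15 enzyme pairs were chosen with earlier results of these data known. Every one of the 10 and any gene of the lists could be named, but none for likeness of pattern, as 2 samples of 1 state give none. Some genes of the lists are not reported here by name. Detected means 1 FPKM or more in each replicate. Ratios used log2(FPKM + 1), and their SD is over 2 replicates. Of the 15 pairs 14 gave a ratio. A percentile is the share of genes with a lower mean. No test was made. Alternatives were pseudocounts of 0.1 and 0, detection limits of 0.1, 0.5 and 5, rescaling to TPM, centring, other sets of genes for percentiles and each replicate alone. The calculations were tested on simulated data. Python 3.11.15, numpy 2.4.6 and pandas 2.3.3 were used.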

Additional observations from a re-analysis of the deposited data

How the results depend on the processing

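All 10 genes were detected under every detection limit, in each replicate alone and after rescaling to TPM. The lowest value was 42.7 FPKM (Psph, replicate 2), above the highest limit of 5, so this count could not change. The number at 100 or more was 4 without replicate 1, 6 without replicate 2 and 5 in TPM. No ratio of a pair turned its direction, and under these alternatives none could. A pseudocount and a rescaling of a whole library keep the sign, and all 14 ratios had the same sign in both replicates. So this says nothing about how firm the directions are. With pseudocounts of 0.1 and 0 the log2 ratio of Mthfd2 to Mthfd2l was 4.78 and 4.87, that of Mat2a to Mat1a 9.999 and 12.24, and that of Tdh to Tha1 11.30 and 12.41, since the second gene lay near 0. In TPM the ratio of Mat2a to Mat1a was 7.11 and that of Tdh to Tha1 8.88. These differ from the FPKM ratios only because 1 was still added to the rescaled values. Over leaving out each replicate, the ratio of Shmt2 to Shmt1 ran from -1.12 to -1.08. At a detection limit of 5 there was 1 gene detected in the list of threonine, serine and glycine breakdown and 1 among small-molecule methyltransferases. At a limit of 0.1 there were 5 methyltransferases, 3 fibroblast, 3 primitive endoderm and 2 hepatocyte markers. Rescaling to TPM moved 7 of 10 levels by more than their SD, Tdh to 516. It multiplies all genes of a library by the same factor, so it is a change of unit. Within a library no gene moved relative to another. No paired analysis was possible because there is 1 group only. Depth in reads is unknown, so no counting error can be given, and 2 replicates limit every SD.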

Other observations

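Polyamine synthesis, which draws on S-adenosylmethionine, was detected throughout, with 9 of 9 genes of synthesis and methionine salvage and a list median of 53.8 ± 1.46 FPKM. Odc1, the ornithine decarboxylase, had 234 and 239, and Amd1, which decarboxylates S-adenosylmethionine, had 81.2 and 85.5. The spermidine and spermine synthase genes Srm and Sms had 67.9 and 61.8, and 57.2 and 58.9, in replicates 1 and 2. Of 6 methyltransferases of small molecules 3 were detected. Nnmt, which methylates nicotinamide, had 1.19 in replicate 1 and 0.535 in replicate 2, and Gnmt, the glycine methyltransferase known from liver, had 0.456 and 0.283.

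All 10 genes listed for the amino acid response were detected, with a list median of 14.3 ± 0.278 FPKM. Asns, the asparagine synthetase, had 545 and 522, above Tdh in both replicates, and the transcription factor gene Atf4 had 187 and 189. Ddit3 had 16.3 and 20.5, Trib3 10.3 and 9.63, and Chac1, a glutathione-degrading enzyme, 3.81 and 3.25.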
